A study of Mus musculus with 4 samples.

Results

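Of 289251 DNase-seq peaks on chromosomes 1 to 19 in the list of biosample 1, 5207 (1.80%) lay at a start site of a long non-coding RNA (lncRNA) gene and away from every protein-coding start site. In the list of biosample 2 they were 2018 of 94647 (2.13%). A peak was counted when its nearest base lay within 1000 bp of a start site of any transcript of a lncRNA gene in GENCODE M21 and over 1000 bp from every start site of a coding transcript. The gene types were lincRNA (lncRNA genes between coding genes), antisense, processed transcript, bidirectional promoter lncRNA, sense intronic and macro lncRNA. These peaks are called lncRNA start-site peaks here. The cells were 3T3-L1, an immortalized mouse fibroblast line of the fat lineage, labelled as strain C57BL/6J with no treatment, allele or differentiation step named. The series holds 4 libraries from 2 biosamples, 2 libraries each, and the authors pooled the libraries of a biosample before calling peaks, so each biosample gives 1 list and no spread between replicates. Whether the biosamples came from separate cultures is not stated in the labels, and an established line of 1 origin stands for no other cells.

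Long non-coding RNAs are transcribed from their own promoters, mostly by RNA polymerase II, and are not translated into long proteins. Some act as structural RNAs of the nucleus, some silence neighbouring genes on the same chromosome, and many serve as hosts from whose introns small nucleolar RNAs or microRNAs are cut. DNase I cuts DNA where nucleosomes are absent or displaced, so a peak at a start site marks accessible DNA and does not measure the RNA. Protein-coding promoters in the same lists were looked up as a check of the label. All 6 fibroblast genes (Vim, Col1a1, Col1a2, Pdgfrb, Thy1 and Fn1) and the adipogenic factor genes Pparg, Cebpb and Ebf1 had a promoter peak in both lists. The fat cell genes Adipoq, Cfd, Retn and Cidea, the blood cell genes Ptprc and Cd3e, the epithelial genes Epcam and Cdh1 and the hepatocyte gene Alb had none in either list. Of all 20722 coding genes 53.0% had one in both lists and 35.9% in neither, so a few chosen genes are a limited check. Peaks were windows of 150 bp, and each carried a score, a whole number up to 150 given by the authors, a value that no header or label defines. Scores were read only within their list, as a percentile of all its peaks. Read depth is unknown, as no read counts come with the peaks, and the list of biosample 1 was 3.06 times as long.

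The sequences below are those of 6 lncRNA start-site peaks of biosample 1 that were found in both lists. The first 4 are the strongest peaks of the leading genes. The last 2 come from other genes named here and were added for a match to the AP-1 and TEAD motifs, the most frequent of those searched. They are shown to let the leading peaks be read as sequence, with and without matches to the motifs counted further on. Each was read from the mm10 chromosomes (RefSeq, GRCm38.p6) on the strand of the lncRNA gene, and capitals mark motif matches.
4932412D23Rik: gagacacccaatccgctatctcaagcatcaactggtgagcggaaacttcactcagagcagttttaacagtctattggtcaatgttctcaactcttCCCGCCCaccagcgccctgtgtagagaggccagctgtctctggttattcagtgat
Mir22hg: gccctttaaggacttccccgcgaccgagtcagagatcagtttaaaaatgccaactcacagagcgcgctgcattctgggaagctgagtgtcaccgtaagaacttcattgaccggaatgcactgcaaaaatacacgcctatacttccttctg
Dnm3os: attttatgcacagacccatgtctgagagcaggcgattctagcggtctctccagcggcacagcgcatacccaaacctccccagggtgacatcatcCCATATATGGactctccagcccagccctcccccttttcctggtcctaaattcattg
Gm5444: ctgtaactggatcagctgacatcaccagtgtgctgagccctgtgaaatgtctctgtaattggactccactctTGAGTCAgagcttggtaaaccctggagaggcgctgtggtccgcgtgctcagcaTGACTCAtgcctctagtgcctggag
Lncpint: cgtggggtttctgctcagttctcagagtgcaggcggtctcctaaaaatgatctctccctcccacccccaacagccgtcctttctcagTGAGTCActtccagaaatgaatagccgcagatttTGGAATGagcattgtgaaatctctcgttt
Tvp23bos: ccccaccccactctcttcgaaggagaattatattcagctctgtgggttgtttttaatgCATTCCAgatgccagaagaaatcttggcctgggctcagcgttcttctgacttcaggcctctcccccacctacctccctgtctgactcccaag

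The peak of the lincRNA gene 4932412D23Rik (chr16:42875496-42875645, minus strand) was centred 17 bp from its start site and held 1 match to the SP/KLF motif GGGCGGG, the box bound by the SP and KLF zinc finger factors. That of Mir22hg (chr11:75461196-75461345, plus strand), the host gene of a microRNA, lay 269 bp from the start site and held none of the 15 motifs. The peak of Dnm3os (chr1:162217496-162217645, plus strand), an antisense gene in an intron of Dnm3 that hosts microRNAs, lay 53 bp from the start site and held a match to the serum response factor (SRF) motif, a motif added to the search after the sequences had been seen. In Gm5444 (chr13:4771536-4771685, plus strand) 2 matches to the AP-1 motif TGACTCA lay in a peak centred 41 bp from the start site. The peak of Lncpint (chr6:31088576-31088725, minus strand) held 1 AP-1 match and 1 match to the TEAD motif, searched as CATTCCA or CATTCCT. The Tvp23bos peak (chr11:62921256-62921405, minus strand) held 1 TEAD match. AP-1 is the dimer of FOS and JUN family proteins, and TEAD factors are the DNA-binding partners of the Hippo pathway.

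The peaks gathered just upstream of the start sites. In biosample 1, 972 of the 5207 (18.7%, 95% Wilson interval 17.6 to 19.7) were centred in the 200 bp before the nearest lncRNA start site and 507 (9.74%) in the 200 bp after it. In biosample 2 the shares were 25.1% (23.2 to 27.0) and 9.86%. The single highest bin was the last 100 bp before the start site, with 12.1% (11.3 to 13.0) in biosample 1 and 16.5% (14.9 to 18.2) in biosample 2, while bins from 300 bp upstream outwards and from 100 bp downstream outwards each held 3.36% to 4.47% in biosample 1 and 2.82% to 4.46% in biosample 2. Peaks at protein-coding start sites had the same summit and a steeper one, with 18.9% and 30.0% in that bin. All intervals here cover counting error only, over peaks or genes that are not replicates. With 1 list per biosample no test between classes was possible, and differences are described by their intervals.

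**Figure D1:**
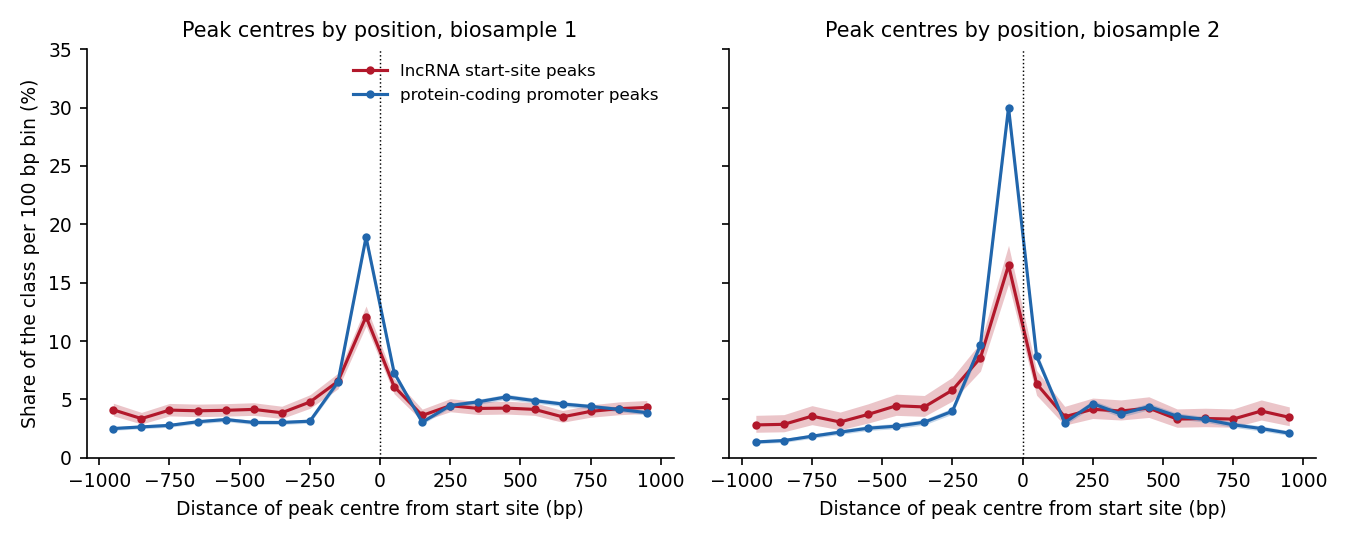
Position of peak centres around the nearest start site, in bins of 100 bp (x axis, distance in bp, negative upstream), as a share of each class (y axis, %), for lncRNA start-site peaks and protein-coding promoter peaks of both lists, with bands for 95% Wilson intervals. Both classes have their summit in the last 100 bp upstream, at 12.1% and 16.5% for lncRNA start-site peaks and 18.9% and 30.0% for coding promoters in biosamples 1 and 2.

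Peaks near the summit were also the stronger ones. In biosample 1 those centred in the 200 bp upstream had a median percentile of 69.6 and the others 56.6, and in biosample 2 these were 68.9 and 53.6. The 730 peaks of biosample 1 that covered a start site had a median of 70.3 (66.9 to 73.6, from order statistics). Just inside the edge of the window, 846 peaks in its last 200 bp had a median percentile of 50.9, and 822 peaks in the first 200 bp beyond it had 51.9. In biosample 2 the same values were 53.6 over 260 peaks and 55.3 over 247, so in neither list did the median percentile step at the edge of the window.

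Between the classes, lncRNA start-site peaks lay below coding promoters in strength and above the rest. Their median percentile was 59.2 (57.5 to 60.0) in biosample 1, against 73.6 (73.6 to 74.2) for the 38583 peaks within 1000 bp of a coding start site and 46.5 (45.3 to 46.5) for the 245461 other peaks. In biosample 2 the medians were 57.0 (55.3 to 58.7), 66.1 (66.1 to 67.5) and 46.0. Of the lncRNA start-site peaks, 14.6% in biosample 1 and 14.3% in biosample 2 were in the strongest decile of their list, where coding promoters had 26.7% and 20.1%. By the type of the nearest gene, the median in biosample 1 was 64.7 (61.7 to 67.6) for processed transcripts, 60.0 (58.3 to 61.7) for lincRNAs, 54.8 (52.9 to 56.6) for antisense genes and 50.9 (44.1 to 59.2) for sense intronic genes. In biosample 2 the intervals of these types all overlapped, with medians from 53.6 to 58.7.

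Their sequence separated them more clearly from coding promoters. A window of 200 bp at the peak was called CpG-rich when the observed number of CpG dinucleotides was at least 0.6 of that expected from its C and G content, a mark of CpG island promoters. This held for 548 lncRNA start-site peaks of biosample 1 (10.5%, 9.72 to 11.4) and 336 of biosample 2 (16.7%, 15.1 to 18.3). Coding promoter peaks were CpG-rich in 42.7% and 57.7%, and other peaks in 2.00% and 3.43%. By the rule, peaks near both kinds of start site count as coding promoter peaks. What this adds to the contrast was not tested. The CpG-rich peaks were the strong ones, with a median percentile of 81.3 (78.6 to 84.4) in biosample 1 against 55.7 (53.9 to 56.6) for the CpG-poor, and 70.1 (66.1 to 73.7) against 53.6 (51.7 to 57.0) in biosample 2. Within the CpG-poor class the gap to coding promoters narrowed, to 55.7 against 60.0 (59.2 to 60.9) in biosample 1, and turned in biosample 2, to 53.6 against 48.0 (48.0 to 49.9). The CpG-rich peaks sat closer to the start site, with 28.5% (24.8 to 32.4) in the 200 bp upstream in biosample 1 against 17.5% (16.4 to 18.6) of the CpG-poor. In the last 200 bp inside the window, 15.4% (11.5 to 20.3) of the peaks of biosample 2 were CpG-rich. In the first 200 bp beyond it 7.29% (4.66 to 11.2) were. In biosample 1 the same shares were 6.86% (5.34 to 8.76) and 4.99% (3.70 to 6.70). Soft-masked repeats made up most of the window in 6.99% of the lncRNA start-site peaks of biosample 1, compared with 11.4% of other peaks and 4.30% of coding promoter peaks.

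Most of these peaks were far from coding genes' starts. In biosample 1, 3641 (69.9%) lay between coding genes, 1255 (24.1%) in an intron of a coding gene and 311 (5.97%) on an exon. For all peaks of biosample 1 these shares were 47.6%, 42.3% and 10.1%. The gene types set part of this, as lincRNA genes lie between coding genes by definition. Peaks nearest a lincRNA start site lay there in 94.2%, and those nearest an antisense one in 26.9%. The nearest coding start site was over 1 kb and up to 5 kb away for 1109 of the lncRNA start-site peaks and over 100 kb away for 1043. Among the 1109 near ones the lncRNA and the coding gene were on opposite strands in 86.7% (84.6 to 88.6). Of the peaks farther than 5 kb this held for 56.2% (54.7 to 57.8), and biosample 2 gave 87.6% (83.8 to 90.6) and 54.2% (51.8 to 56.6). The strands of lncRNA start sites without a peak were not counted. Whether the contrast belongs to the peaks or to the annotation was thus not tested. CpG-rich sequence made up 15.1% (13.1 to 17.3) of the near peaks of biosample 1 and 5.47% (4.24 to 7.01) of those over 100 kb away, while their median percentiles were 58.3 (55.7 to 60.0) and 54.8 (50.9 to 57.5).

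The comparison that the series allows is between its biosamples: how often a site open in one was open in the other. Of the lncRNA start-site peaks of biosample 1, 1868 (35.9%, 34.6 to 37.2) overlapped any peak of biosample 2, by 1 bp or more, against 30.5% of all peaks of biosample 1. In the shorter list 1873 of 2018 (92.8%, 91.6 to 93.9) met a peak of biosample 1, against 93.5% of all its peaks, a share near the background. Of the partners of the 1868 peaks, 1847 were lncRNA start-site peaks too, 13 were other peaks and 8 were coding promoter peaks. Coding promoter peaks were shared in 46.9% and 89.2%, and other peaks in 27.8% and 94.7%. When the list of biosample 1 was shortened to its strongest 94647 peaks, as many as biosample 2 has, 74.4% of its lncRNA start-site peaks were shared against 76.6% of all, so that the order of members and background turned. The same step gave, in biosample 2, 80.3% against 77.3%, and the order turned there too. Across the 1868 shared peaks the 2 scores ranked alike, with a Spearman rho of 0.917, a description over peaks that share libraries (0.911 over all shared peaks).

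Sharing followed the score in all classes. In biosample 1 it went from 0.608% (0.167 to 2.19) of the 329 lncRNA start-site peaks in the weakest decile through 31.4% (27.7 to 35.3) in the seventh to 92.8% (90.7 to 94.4) of the 762 in the strongest. In biosample 2 the weakest decile had 74.7% (67.3 to 80.9) and the strongest 98.3% (96.0 to 99.3). Weighted over deciles, the lncRNA start-site peaks were between the other classes. Had each decile been shared as coding promoters were, 32.8% of the members of biosample 1 and 86.9% of those of biosample 2 would have been shared, and at the rates of other peaks 38.7% and 95.8%, where 35.9% and 92.8% were observed.

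**Figure D2:**
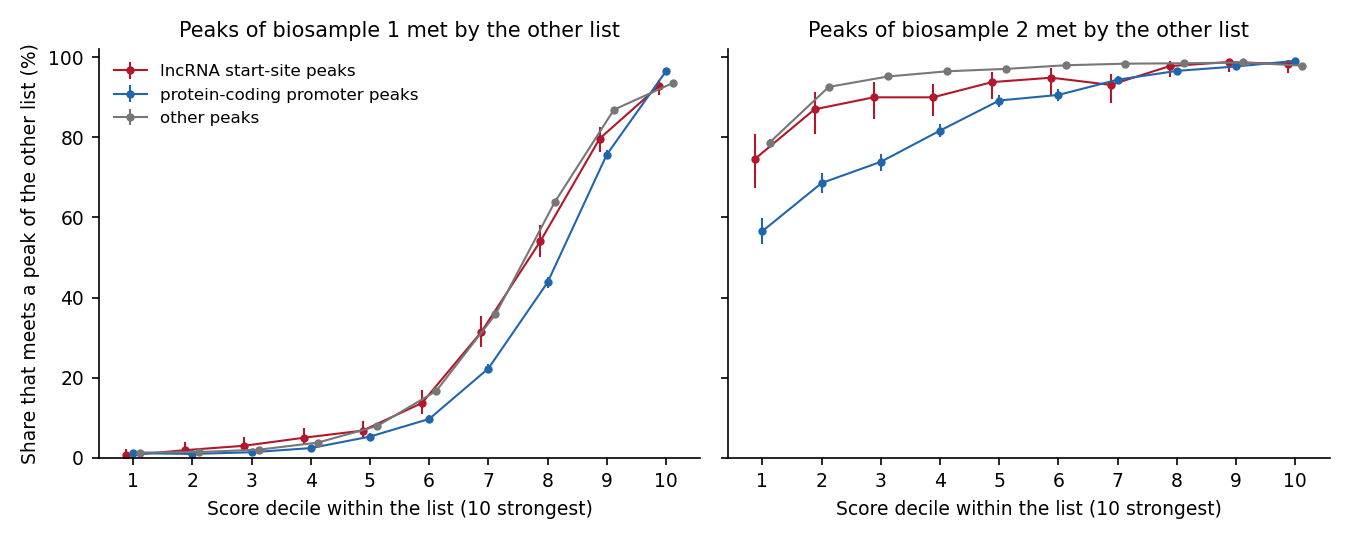
Share of peaks that meet a peak of the other list (y axis, %) by score decile within the list (x axis, 10 is the strongest), for lncRNA start-site peaks, coding promoter peaks and other peaks, with 95% Wilson intervals. For lncRNA start-site peaks it goes from 0.608% to 92.8% in biosample 1 and from 74.7% to 98.3% in biosample 2, and in deciles 7 and 8 of biosample 1 it lies between coding promoters (22.3% and 43.8%) and other peaks (35.8% and 63.8%).

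Sharing differed by place in both lists and by CpG class in biosample 1. There, 48.3% (45.1 to 51.4) of the lncRNA start-site peaks in the 200 bp upstream were shared and 33.0% (31.6 to 34.5) of those elsewhere, and for the CpG-rich ones in the 200 bp upstream the share was 76.3% (69.0 to 82.3). CpG-rich peaks were shared in 57.8% (53.7 to 61.9) and CpG-poor peaks in 33.3% (32.0 to 34.7), against 66.5% and 32.3% for CpG-rich and CpG-poor coding promoters. Peaks of biosample 2 in the 200 bp upstream were shared in 97.0% (95.2 to 98.2) and the others in 91.4% (89.9 to 92.7), while CpG-rich and CpG-poor peaks had 92.3% and 92.9%. The 3339 unshared peaks of biosample 1 had a median percentile of 42.9 and the 145 of biosample 2 had 25.6. The classes compared here also differed in strength. In biosample 1 the median percentile was 69.6 in the 200 bp upstream and 56.6 elsewhere, and 81.3 for CpG-rich and 55.7 for CpG-poor peaks. The part of strength in these differences of sharing was not tested.

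The strongest unshared peaks of biosample 2 lay close to peaks of biosample 1. The 5 strongest lay at Gm20732 (score 88), Gm39473 (80), Gm11527 (77), Gm48903 (74) and Gm39090 (70), all of them lincRNA genes known by model numbers. Each lay in a hotspot of biosample 1, a broader region of high cutting called by the authors, and between 10 and 130 bp from one of its peaks. With a hotspot also counting, 99.1% (98.6 to 99.4) of the lncRNA start-site peaks of biosample 2 were met in biosample 1. Of all peaks of biosample 2 this held for 98.6%, so the share was near the background.

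The strongest unshared peaks of biosample 1 came from 1 place. The 5 strongest, with scores of 148 to 150, lay at Gm32141 with 2 peaks, Gm32235, Gm32365 and Gm40770, between Cpsf6 and Cpm on chromosome 10, and none lay in a hotspot of biosample 2. The segment around them, chr10:117300000-117799999, was the longest run of 100 kb bins with over 10 unshared peaks of the strongest decile each, a rule set after its values were seen. It held 892 peaks of biosample 1 at a median percentile of 99.4 and 238 of biosample 2 at 98.6. Of these, 21 and 6 were lncRNA start-site peaks, of 5 and 2 lncRNA genes, and 4 of the 21 and 5 of the 6 were shared, the remaining one being the peak of Gm48903. Of all peaks of the segment, 21.5% in biosample 1 and 81.9% in biosample 2 were shared, so the members were near its background. The segment gave 16 of the 55 unshared lncRNA start-site peaks of the strongest decile in biosample 1. Its bins were picked by unshared peaks of this decile in biosample 1. Low sharing there and the count of 16 thus follow in part from the rule. Without the segment the share of lncRNA start-site peaks that were shared was 35.9% and 92.8%, and the median percentile 58.3 and 57.0. What sets the segment apart was not tested.

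Counted by gene, a smaller share of lncRNA genes than of coding genes had a peak at a start site. Of 9394 lncRNA genes on these chromosomes, 7865 had at least 1 start site over 1000 bp from every coding one. Of these, 1324 (16.8%, 16.0 to 17.7) had a lncRNA start-site peak in both lists. A further 1351 (17.2%) had one only in biosample 1 and 20 (0.254%) only in biosample 2, and 5170 (65.7%, 64.7 to 66.8) had none. Among 20722 protein-coding genes 53.0% had, in both lists, a peak no farther than 1000 bp from a start site. For coding genes any peak counted, here and below, while for lncRNA genes only peaks away from coding start sites did. With any peak within 1000 bp of a start site counted, 26.1% of all 9394 lncRNA genes had one in both lists. Only 338 of the lncRNA genes (4.30%) had a CpG-rich sequence at the most upstream eligible start site, measured over 1000 bp, compared with 47.9% of coding genes. Start sites of lncRNA genes within 1000 bp of a coding one were left out here, and the part of this in the contrast was not tested. In both kinds of gene the CpG-rich were open more often. The shares with a peak in both lists were 45.9% (40.6 to 51.2) for CpG-rich and 15.5% (14.7 to 16.4) for CpG-poor lncRNA genes, and 80.5% (79.7 to 81.3) and 27.8% (26.9 to 28.6) for coding genes. Coding genes have more annotated start sites, and among CpG-poor genes with 1 start site the shares were closer, at 13.2% (12.4 to 14.1) of 5771 lncRNA genes and 17.4% (16.3 to 18.5) of 4466 coding genes, with 70.3% (69.1 to 71.4) and 69.1% (67.7 to 70.4) without a peak in either list. Among CpG-rich genes with 1 start site they were 37.9% (31.3 to 45.0) and 75.2% (73.7 to 76.7).

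Genes with more annotated start sites had a peak in both lists more often. The share was 14.0% (13.1 to 14.9) of 5961 lncRNA genes with 1 start site, 23.2% (21.1 to 25.4) of 1506 with 2 or 3 and 35.4% (30.9 to 40.2) of 398 with 4 or more, where each added start site also adds sequence in which a peak counts. For coding genes the shares were 41.4%, 52.3% and 75.3%. Taken start site by start site, 1925 of 11137 (17.3%) had a peak in both lists, 53.7% (49.7 to 57.6) of the CpG-rich and 15.2% (14.5 to 15.9) of the CpG-poor. By type, 28.3% (24.6 to 32.2) of 541 processed transcript genes had a peak in both, 17.1% (16.1 to 18.2) of 4888 lincRNA genes, 14.2% (12.8 to 15.8) of 2106 antisense genes and 10.9% (7.93 to 14.9) of 311 sense intronic genes. Processed transcripts also had the highest CpG-rich share of these 4, 12.8% (10.2 to 15.8), and sense intronic genes the lowest, 0.643%. Of 17 bidirectional promoter lncRNA genes 2 were open in both lists, and of the 2 macro lncRNA genes 1.

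**Figure D3:**
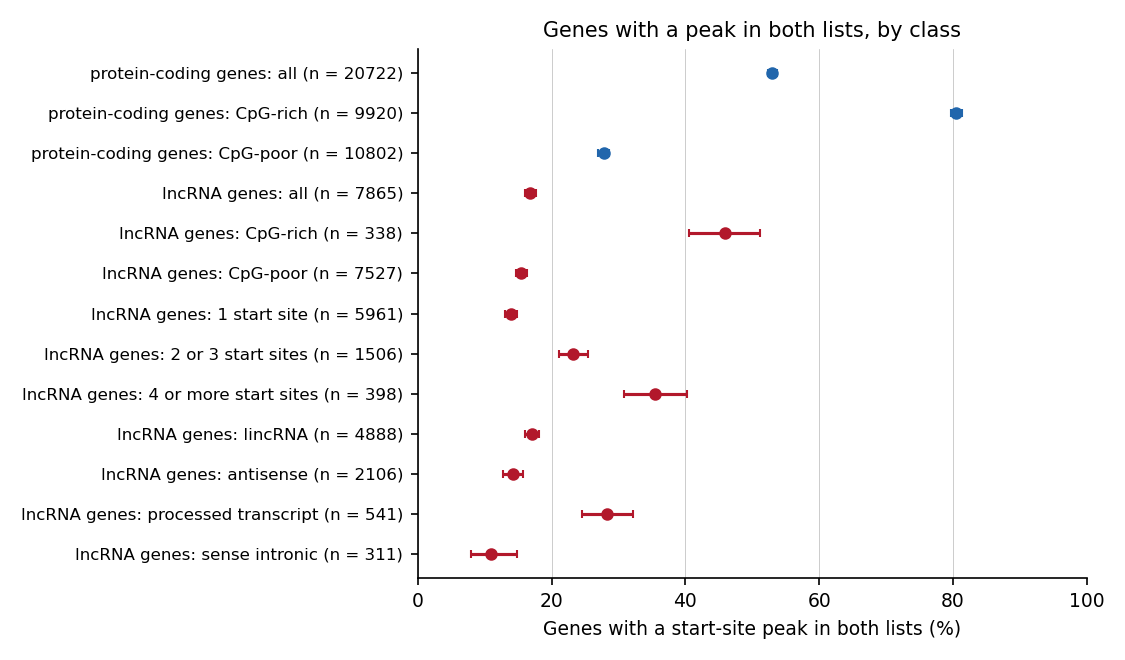
Share of genes with a start-site peak in both lists (x axis, %), for protein-coding genes (blue) and lncRNA genes (red) by CpG class, number of start sites and gene type (y axis, with the number of genes), with 95% Wilson intervals. All eligible lncRNA genes stand at 16.8% and all coding genes at 53.0%, and CpG-rich lncRNA genes at 45.9%. For coding genes any peak within 1000 bp of a start site counts, and for lncRNA genes only lncRNA start-site peaks.

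The 12 lncRNA genes with the highest mean percentile in both lists were led by 4932412D23Rik, with scores of 150 and 123 in biosamples 1 and 2. Mir22hg followed with 149 and 112, then Dnm3os with 149 and 106 and Gm5444 with 150 and 104. The same peaks (scores 150 and 104) served both 1700028E10Rik and D730045B01Rik, genes on opposite strands of chromosome 5, and lay 192 bp and 262 bp from their start sites in biosample 1. 1700113A16Rik had 148 and 107, Gm26664 147 and 105, Tvp23bos 147 and 104, Gm6410 146 and 110, and A530053M12Rik 146 and 107. Dancr, named for its role against cell differentiation, closed the group with 148 and 99 in a peak at the same coordinates in both lists, chr5:74092896-74093045, centred 90 bp upstream of its start site. Of these 12 genes, Gm26664 had its peaks 998 and 1018 bp upstream of its start site and 1.20 and 1.18 kb from the coding start site of Ier2, an immediate early gene, so it was in the set by a narrow margin at both limits.

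Some genes held many peaks. The gene with the most was 3110039I08Rik, a processed transcript gene with 40 annotated start sites, which had 24 lncRNA start-site peaks in biosample 1 and 8 in biosample 2. Its strongest scored 138 and 73, at different places. Lncpint, a lncRNA gene induced by p53, had 15 and 9 peaks over 14 start sites. Ptprv and 1810026B05Rik had 11 each in biosample 1, and 4 and 1 in biosample 2. Frmd8os, Junos and A430093F15Rik had 10 each in biosample 1. The strongest peak of Frmd8os (chr19:5845636-5845785, scores 146 and 98) was also that of Neat1, which starts on the other strand. In all, 155 of the 5207 peaks of biosample 1 and 82 of the 2018 of biosample 2 lay within 1000 bp of start sites of more than 1 lncRNA gene, and 295 of the 2966 genes with a peak in either list had 4 or more in biosample 1.

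Lists of lncRNA genes of known kinds were then followed one by one. Of 95 symbols in 7 lists, 75 were found among the lncRNA genes of these chromosomes and 67 had an eligible start site. Of the 67, 26 had a lncRNA start-site peak in both lists and 16 only in that of biosample 1, 25 had none, and no gene had one only in biosample 2, where all lncRNA genes had 16.8% in both. The lists hold well-studied genes, and no test was made of them.

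Host genes of small nucleolar RNAs, the guides of ribosomal RNA modification, were open most often among the 7 lists. Of 11 eligible genes 8 had a peak in both lists. The strongest were those of Snhg8 (scores 146 and 82, percentiles 99.2 and 95.7), Snhg17 (137 and 74), Snhg6 (139 and 72) and Snhg5 (139 and 66), with Snhg15 (140 and 64), Snhg20 (140 and 61), Snhg12 (131 and 57) and Epb41l4aos (122 and 45) after them. The Snhg6 peak, chr1:9944116-9944265, and the Snhg20 peak, chr11:117076696-117076845, had the same coordinates in both lists and were centred 72 and 13 bp upstream of their start sites. Of the 11 genes, 7 were CpG-rich at the most upstream eligible start site, and most had 4 or more annotated start sites. Of all 46 eligible lncRNA genes that were CpG-rich there and had 4 or more start sites, 73.9% (59.7 to 84.4) had a peak in both lists. What start sites and CpG class add to the share of these hosts was not tested. Gas5 (score 92) and Snhg1 (75) had a lncRNA start-site peak in biosample 1 alone, and Snhg14 had none. For Gas5 and Snhg1 the rule left out the stronger sites: any peak within 1000 bp of a start site, those near a coding start site included, scored up to 140 and 71 in biosamples 1 and 2 for Gas5 and up to 147 and 103 for Snhg1. Counted that way, 15 of the 16 hosts found, all but Snhg14, were open in both lists, against 26.1% of all 9394 lncRNA genes.

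Of 12 abundant or well-studied lncRNA genes 5 had a peak in both lists. Over all eligible lncRNA genes the share was 16.8%, and over those with 4 or more start sites 35.4%. Neat1, the scaffold RNA of paraspeckles, had scores of 146 and 98 (percentiles 99.2 and 99.0) in a peak centred 232 bp upstream in biosample 1. Lncpint had 147 and 89. Trp53cor1, the p53 target beside Cdkn1a also known as lincRNA-p21, had 144 and 93 in a peak at chr17:29078976-29079125 in both lists, centred 129 bp downstream of its start site. Malat1, an RNA of nuclear speckles, had 137 and 74, and Pvt1, a neighbour of Myc, 127 and 36. Malat1 had more peaks in the shorter list, 8 in biosample 1 and 13 in biosample 2, while Neat1 had 9 and 2. Tug1 had a lncRNA start-site peak in biosample 1 alone (score 63), and any peak at its start sites scored up to 142 and 85. Sox2ot, which overlaps the pluripotency gene Sox2, had one in biosample 1 alone (score 86). H19, Meg3, Miat, Rmst and Fendrr had no lncRNA start-site peak in either list.

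Imprinted lncRNAs, which are made from 1 parental allele, were split. Airn, which silences Igf2r and its neighbours in cis, had scores of 134 and 72 (percentiles 94.6 and 91.5), Kcnq1ot1, the antisense RNA in Kcnq1, 136 and 76, Nespas, the antisense RNA of the Gnas locus, 138 and 65, and Peg13, in an intron of Trappc9, 124 and 45. The peaks of Airn were centred 1 and 21 bp upstream of a start site, and the Kcnq1ot1 peak, chr7:143296576-143296725, was the same in both lists and 101 bp upstream. Rian (score 76) and Mirg (59) had a peak in biosample 1 alone. Meg3, which lies with Rian and Mirg in the Dlk1-Dio3 imprinted region, had none, nor had H19 or Snhg14. Of the 9 genes, 4 thus had a peak in each list, 2 only in that of biosample 1, and 3 had none. A peak in both lists was found for 16.8% of all eligible lncRNA genes and 35.4% of those with 4 or more start sites. The lists do not tell the alleles apart.

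Of 12 genes listed as microRNA hosts 7 had a peak in both lists. The share was 16.8% over all eligible lncRNA genes and 35.4% over those with 4 or more start sites. Besides Mir22hg, Dnm3os and Lncpint the 7 were Dleu2 (scores 141 and 69), Mir99ahg (135 and 63), Mirt1 (119 and 38) and Mir17hg (112 and 29). Mir17hg is the host of a cluster of growth-promoting microRNAs. Mirt1 and Mirt2 had been put in this list by their names, although they are not known as microRNA hosts. Mir155hg (score 103) and Mirt2 (80) had a peak in biosample 1 alone. Mir142hg, the host of a microRNA of blood cells, and Mir9-3hg and Mir124a-1hg, hosts of microRNAs of neurons, had none. Mir9-3hg and Mir124a-1hg were nonetheless CpG-rich at their most upstream eligible start sites, with CpG ratios of 0.688 and 0.728.

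Among lncRNA genes of the Hox clusters, which lie between the genes of positional identity, 2 of 10 had a peak in both lists, a share near the 16.8% of all eligible lncRNA genes. Hoxd3os1 had scores of 141 and 69 (percentiles 97.5 and 90.0) and Hoxaas2 132 and 50. Hoxb3os (score 111), Hotair (107), Hoxaas3 (92) and Gm53 (62) had a peak in biosample 1 alone. Hottip, Hoxb5os, Hoxa11os and Hotairm1 had no lncRNA start-site peak, and for Hotairm1 peaks that also lay within 1000 bp of a coding start site scored up to 145 and 73. No gene of this list was CpG-rich at its most upstream eligible start site.

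Of 17 eligible genes beside developmental factor genes 12 had no lncRNA start-site peak, where 65.7% of all eligible lncRNA genes had none. Among lncRNA genes with 2 or 3 start sites 57.0% had none, and among those with 4 or more 40.2%. Most of the 17 had 2 or more start sites, and no test was made of the difference. A peak in both lists was found for 1, Dlx6os1 (scores 112 and 35, percentiles 83.8 and 53.6), an antisense gene at the homeobox gene Dlx6. Tbx3os1 (124), Sox2ot (86), Wt1os (68) and Hand2os1 (56) had a lncRNA start-site peak in biosample 1 alone. Among the 12 without one were Six3os1, Nkx2-2os, Pax6os1, Otx2os1, Dlx1as and Fendrr. For Fendrr, peaks that also lay within 1000 bp of a coding start site scored up to 81 in biosample 1, with none in biosample 2. The Tbx3os1 peak of biosample 1 did meet a peak of biosample 2 (score 41), but that one lay within 1000 bp of a coding start site and so was no lncRNA start-site peak. Foxd2os had a peak in both lists (112 and 33), although its start site lay within 1000 bp of a coding one, so it was not among the 17.

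Of 8 lncRNA symbols known from fat cells only 3 were found in the annotation. Lncppara had a peak in biosample 1 alone, with a score of 61 at percentile 45.3, and Lncbate1 and Ctcflos, both known from brown fat, had none. Of all eligible lncRNA genes 17.2% had a peak in biosample 1 alone and 65.7% had none, and 3 genes are too few to differ from that.

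**Figure D4:**
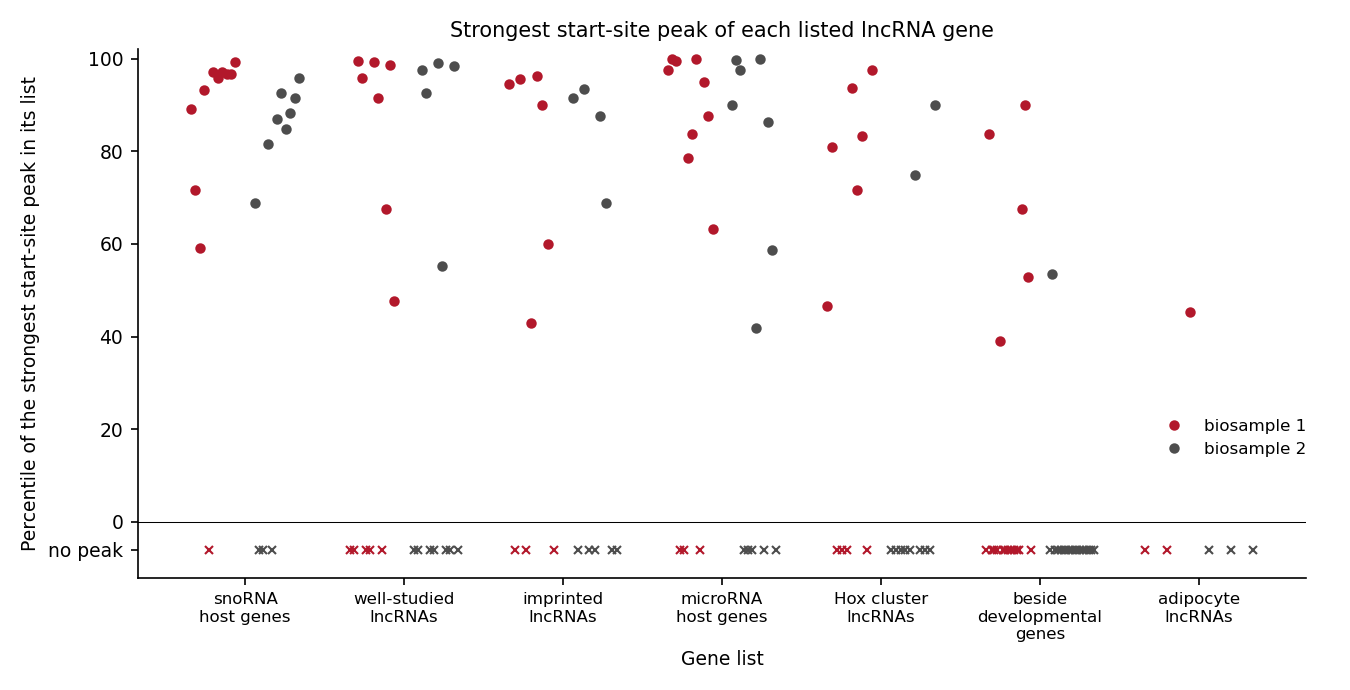
Percentile of the strongest lncRNA start-site peak of each eligible listed gene (y axis) in biosample 1 (red) and biosample 2 (grey), by gene list (x axis), with crosses for genes without a peak. Genes in 2 lists are drawn in both. The 8 small nucleolar RNA hosts open in both lists stand at percentiles 89.0 to 99.2 in biosample 1. Of the 17 genes beside developmental factors 12 have no lncRNA start-site peak in either list.

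Motif matches in the 200 bp at the peak, counted on either strand, put the lncRNA start-site peaks between coding promoters and other peaks for most motifs. AP-1 (TGACTCA) had a match in 16.6% (15.6 to 17.7) in biosample 1 and 19.7% in biosample 2, coding promoter peaks in 6.50% and 6.09%, other peaks in 21.9% and 28.7%, and all peaks in 19.8% and 23.6%. TEAD matches (CATTCCA or CATTCCT) were found in 11.3% (10.5 to 12.2) and 11.7% (10.4 to 13.2), against 12.3% and 12.4% of all peaks. The SP/KLF motif (GGGCGGG) was found in 5.67% (5.07 to 6.33) and 8.72% (7.57 to 10.0), in 19.2% and 27.4% of coding promoter peaks and in 2.09% and 2.81% of other peaks. ETS (CCGGAAG), the motif of a large family of activators common at housekeeping promoters, had a match in 2.21% (1.84 to 2.64) and 3.37% (2.67 to 4.25), against 7.01% and 11% of coding promoter peaks and 0.916% and 1.14% of other peaks. CTCF, the factor that anchors chromatin loops, was searched by a longer motif and found in 3.50% (3.03 to 4.03) and 6.94% (5.91 to 8.13), against 3.85% and 7.59% of all peaks. NFY (CCAATCA or CCAATGA), RUNX (TGTGGTT) and the TATA box (TATAAA) were found in 5.51%, 8.22% and 7.45% in biosample 1, where all peaks had 5.30%, 8.99% and 9.23%. Of the remaining motifs, which were CRE (spelled TGACGTCA), the E-box (spelled CACGTG), the motif of GATA factors (spelled AGATAAG), YY1 (spelled ATGGCGGC), C/EBP (spelled TTGCGCAA), NRF1 and SRF, each had a match in under 4% in both lists. No spelled motif holds another, although an SRF match can hold a TATA box, and a match is a description of the sequence and not a bound site.

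The CpG class split the motifs. In biosample 1 the SP/KLF motif was found in 22.1% of the CpG-rich and 3.73% of the CpG-poor lncRNA start-site peaks, a motif that itself holds a CpG, and AP-1 in 6.39% and 17.8%. In biosample 2 the values were 26.2% and 5.23% for the SP/KLF motif and 5.36% and 22.5% for AP-1. CRE (TGACGTCA) was found in 3.47% of the CpG-rich and 0.515% of the CpG-poor in biosample 1. Shared lncRNA start-site peaks of biosample 1 had a CTCF match in 7.17% (6.09 to 8.43) and unshared ones in 1.44% (1.09 to 1.90), and for AP-1 the shares were 21.1% (19.4 to 23.1) and 14.1% (13.0 to 15.3). The shared peaks were also the stronger ones, at a median percentile of 86.0 against 42.9, and the part of strength in these differences was not tested. SRF matches, at 0.903% in biosample 1, had an interval of 0.679% to 1.20% that holds the share in all peaks (1.02%).

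**Figure D5:**
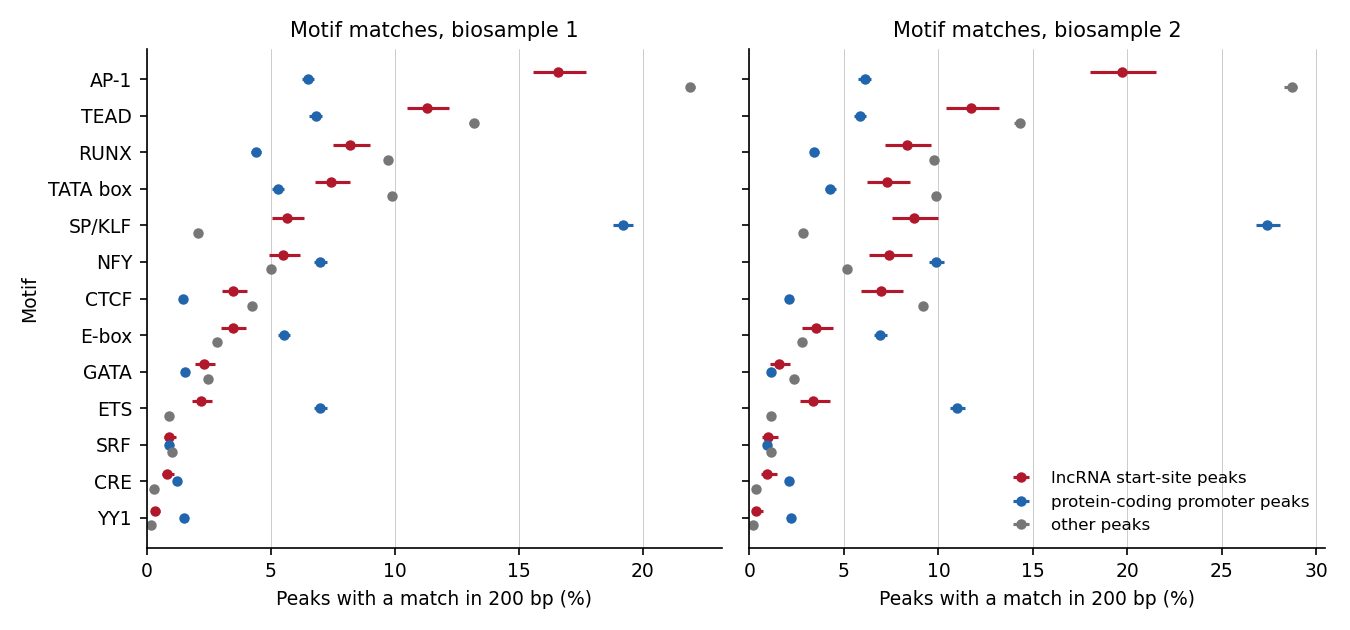
Share of peaks with a motif match in the 200 bp around the peak centre (x axis, %) for 13 of the 15 motifs (y axis) in both lists, for lncRNA start-site peaks (red), coding promoter peaks (blue) and other peaks (grey), with 95% Wilson intervals. AP-1 stands at 16.6% and 19.7% and SP/KLF at 5.67% and 8.72% for lncRNA start-site peaks, between the other classes in both lists.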

How the data were processed

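DNase-seq peaks and hotspots of 3T3-L1 were used as deposited. Per the deposited descriptions of the files, the authors pooled the 2 libraries of each biosample into 1 alignment to mm10 and called peaks and hotspots on it. Caller and version are not given in the sources used here. Each deposited peak has a score, the authors' own value, and each deposited hotspot a −log10 q value between 1.30 and 100, which was not used to rank. Rows repeated exactly (51 and 12) were dropped, and chromosomes 1 to 19 kept. Start sites came from GENCODE M21: 13833 of lncRNA genes and 52063 of coding transcripts. Peaks that met by at least 1 bp were shared. Percentiles are midranks. Shares have 95% Wilson intervals and medians intervals from order statistics (Python 3.11.15, pandas 2.3.3, scipy 1.17.1). Distances, overlaps and motif counts were tested on simulated data. Genes named are the 12 with the highest mean percentile, the 5 with most peaks, the 5 strongest unshared peaks of each list and all listed genes. Members and lists were chosen with earlier results of these data known. Libraries could not be compared, and depth is unknown.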

Additional observations from a re-analysis of the deposited data

How the results depend on the processing

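Of 93 alternative values, 41 moved by less than their counting interval or 1.5 times and 52 by more. The alternatives were listed with earlier results known, and those on coding start sites of all transcripts, the chromosome 10 segment, SRF, rho and the position by most upstream start site were added after seeing the data. Sharing in biosample 1 and 2 was 33.6% and 87.0% with at least 50% of the peak covered, 37.8% and 99.1% with hotspots counting, and 74.4% and 80.3% with the longer list shortened. In the stronger 50% of each list it was 96.9% in biosample 2, rho was 0.814 and 825 genes had a peak in both. With a window of 500 bp there were 3121 peaks (1.08%, median percentile 63.2) in biosample 1 and 1344 (1.42%, 60.3) in biosample 2, and with 2000 bp 9128 (3.16%, 54.8) and 3124 (3.30%). With lincRNA genes only there were 2937 (1.02%) and 1224 (1.29%). The share of the list was 1.73% in biosample 1 by peak centre and 1.74% with coding start sites of all transcripts, 1.42% and 1.75% over 5000 bp from coding start sites, and 1.54% and 1.85% at the most upstream start site. CpG-rich peaks were 16.0% and 24.6% at a ratio of 0.5, and 5.74% and 9.71% at 0.75. In the peak itself, which is shorter, matches fell in biosample 1 to 15.0% for AP-1, 9.37% for TEAD, 0.595% for CRE, 1.63% for ETS, 4.57% for SP/KLF, 4.49% for NFY, 2.63% for the E-box, 6.64% for RUNX, 4.90% for the TATA box, 1.61% for GATA and 0.672% for SRF. In biosample 2 they fell to 17.5% for AP-1, 9.66% for TEAD, 6.89% for SP/KLF, 6.24% for NFY, 2.78% for the E-box, 7.09% for RUNX and 5.0% for the TATA box. Beyond these alternatives' own construction the cause was not tested. No paired analysis was possible because each list pools its libraries, and for the same reason no library could be left out. Depth is unknown, so a missing peak is a peak not called and not a closed site.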
